A study of Mus musculus with 6 samples.

Results

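The 10 genes described here encode transcription factors of the B lineage: Tcf3, Ebf1, Foxo1 and Pax5, the Ikaros family genes Ikzf1 and Ikzf3, and Spi1, Irf4, Irf8 and Bach2. They were taken by symbol from a list of such factors and are 10 of the 37315 genes of the abundance table. All 10 had a mean of at least 1 TPM (an abundance scaled to transcript length and to the library's total) and were among the 11003 genes tested. Of the 10, 8 were among the 19402 genes with allelic counts, and all 8 had at least 20 counts in each library and were among the 8702 genes tested for their alleles. The alleles of Ikzf1 and Foxo1 were not analysed here.

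B cells arise from bone marrow progenitors through a hierarchy of DNA-binding proteins. The E protein encoded by Tcf3 and the factor Ebf1 open the early B-cell programme together with Foxo1, and Pax5 then commits the cells to the lineage by activating B-cell genes and repressing genes of other lineages. Ikaros family zinc-finger proteins, the ETS factor PU.1 (the product of Spi1) and the interferon regulatory factors Irf4 and Irf8 act with them through the pre-B-cell stage, and Bach2 is a repressor that holds back plasma cell differentiation. PAX5 and IKZF1 are recurrently deleted in human B-cell precursor leukaemia, and loss of a single copy of PAX5 or EBF1 is known to perturb B-cell development.

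RNA-seq was made from 3 immortalised lines of B cells that the table headers call Abelson clones and that are known as Abl.2, Abl.3 or Abl.4. All 3 derive from F1 mice of a 129S1/SvImJ and CAST/EiJ cross. The labels give Abl.3 as male and the other lines as female, and the age of the animals was not given in the sources used here. All samples were controls kept in medium with 1% DMSO, a solvent, and live cells were taken on day 2 from a density gradient. Each line is a single clone with 2 library preparation replicates, so the p-values measure only the spread between preparations and no value separates a property of sex from a property of the clone. Allelic counts per library ranged from 18362319 to 26881211, whereas TPM keep no depth. In bulk RNA, fewer expressing cells and less RNA per cell cannot be told apart.

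The B-cell identity of the libraries was checked with marker genes. All 9 B-cell markers reached 1 TPM in every library, and their summed abundance lay between 17871 and 20586 TPM in the 3 lines. The sum was carried by a few abundant genes, and 4, 6 and 7 of the 9 were called by limma for Abl.2 against Abl.3, Abl.2 against Abl.4 and Abl.3 against Abl.4, beside 39.8%, 33.5% and 38.1% of all genes. Cd22, a B-cell surface receptor gene, differed most, at 22.3 ± 1.4, 19.4 ± 1.6 and 92.4 ± 11 TPM (SD, n = 2), with log2 differences of -2.00 (adjusted p = 6.94e-05) and -2.19 (adjusted p = 5.84e-05) for Abl.2 and Abl.3 against Abl.4. None of 8 T-cell or 6 erythroid markers reached 1 TPM, with sums of at most 0.87 and 0.97 TPM, and 4 genes of each list were at 0 in every library. The 8 myeloid markers summed to 159 to 193 TPM in Abl.2, 75.0 to 97.2 TPM in Abl.3 and 77.9 to 89.4 TPM in Abl.4. Lyz2, on chromosome 10, made up nearly all of it. Itgam, the other myeloid marker that reached the filter, ran differently, at 0.43 ± 0.11, 0.845 ± 0.18 and 6.82 ± 0.11 TPM (SD, n = 2); it passed the filter only through its level in Abl.4, so no test is given. The genes Elane, Cd14, Adgre1 and Ly6g were at 0 in all 6 libraries. The 5 NK-cell markers summed to 14.2 to 16.3 TPM in Abl.2, 0.85 to 1.18 TPM in Abl.3 and 5.64 to 6.83 TPM in Abl.4, almost wholly from Klrb1c. The 5 plasma cell markers summed to 88.7 to 92.5, 61.4 to 62.5 and 80.3 to 86.4 TPM, mostly from Xbp1. Of 3 tested plasma cell markers, limma called 3, 0 and 2 in the 3 comparisons, in the order given for the B-cell markers. These stand beside the same shares of all genes. Sdc1 was at 9.9, 2.83 and 9.74 TPM in Abl.2, Abl.3 and Abl.4. The part of these marker differences in the results below was not tested.

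Every factor was expressed in every library, and the largest differences between lines were in Pax5, Bach2, Ikzf3 and Irf8. The highest line mean exceeded the lowest 3.77-fold for Pax5, 3.09-fold for Bach2, 2.38-fold for Ikzf3 and 2.19-fold for Irf8. The ratio was 1.98 for Ikzf1, 1.73 for Tcf3 and 1.46 for Irf4, and it was at most 1.30 for Ebf1, Foxo1 and Spi1. Abl.4 had the highest mean for Ebf1, Ikzf1, Ikzf3, Irf4, Irf8 and Bach2, and Abl.2 for Tcf3, Foxo1 and Pax5. By mean TPM over the 6 libraries, the order from the top was Tcf3, Irf8, Foxo1, Ebf1, Pax5, Spi1, Ikzf1, Irf4, Bach2 and Ikzf3, with overall means of 668, 298, 233, 169, 149, 106, 103, 71.0, 51.8 and 21.4 TPM in that order. The order is of means pooled over lines and is not firm. The ranges of the 6 libraries overlapped for 7 of the 9 pairs of neighbours in it, the exceptions being Tcf3 with Irf8 and Foxo1 with Ebf1, and in Abl.2 Foxo1 (266 TPM) stood above Irf8 (207 TPM).

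**Figure D1:**
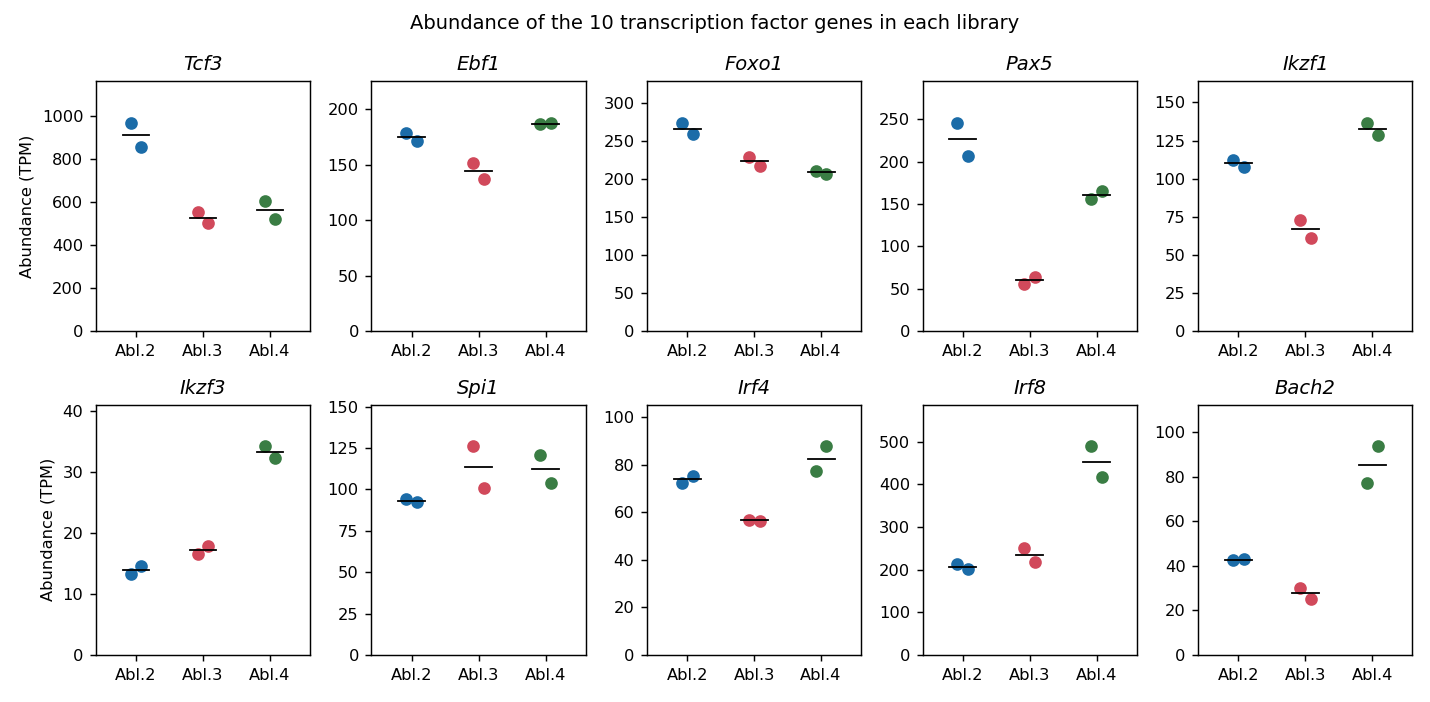
Abundance in TPM (vertical axes, each from 0) of the 10 transcription factor genes in the 2 libraries of Abl.2, Abl.3 and Abl.4; points are libraries and black lines are line means. Pax5 and Bach2 are lowest in Abl.3, Irf8 and Ikzf3 are highest in Abl.4, and Tcf3 is highest in Abl.2.

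Among the early factors, Tcf3 (chr10:80409514-80433647, minus strand; GRCm38, as in all coordinates here) was the most abundant member. It stood at 969 and 855 TPM in Abl.2, 554 and 503 TPM in Abl.3, and 604 and 521 TPM in Abl.4. Abl.2 lay above both other lines without overlap, whereas the libraries of Abl.3 and Abl.4 overlapped. Differences are on the log2(TPM + 1) scale and were tested with limma across all 11003 genes, with Benjamini-Hochberg adjustment and a threshold of 0.05. Tcf3 was higher in Abl.2 than in Abl.3 by 0.79 (SE 0.11, adjusted p = 0.00211) and than in Abl.4 by 0.70 (SE 0.11, adjusted p = 0.00379). Between Abl.3 and Abl.4 the difference was -0.09, with a 95% interval from -0.35 to 0.17, and its sign turned when the allelic counts were summed in place of TPM.

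Ebf1 (chr11:44617317-45008091, plus strand), a factor that opens chromatin at B-cell genes, varied little. Its abundance was 179 and 171 TPM in Abl.2, 152 and 137 TPM in Abl.3, and 186 and 188 TPM in Abl.4. Abl.3 was lowest, and no lines overlapped. Ebf1 was lower in Abl.3 than in Abl.4 (-0.37, SE 0.08, limma adjusted p = 0.0121) and higher in Abl.2 than in Abl.3 by 0.28 (SE 0.08, adjusted p = 0.0333). Neither call held when both alleles' counts were summed and tested with edgeR (log2 differences of -0.13 and 0.12, adjusted p = 0.279 and 0.267). The Abl.2 against Abl.3 call was also lost without either Abl.2 library or without the second Abl.3 library (adjusted p of 0.156, 0.0974 and 0.167), and the Abl.3 against Abl.4 call without the second Abl.3 library (adjusted p = 0.0726).

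Foxo1 (chr3:52268336-52353221, plus strand), a forkhead factor needed for expression of the recombination-activating genes, showed the smallest called changes. It stood at 274 and 259 TPM in Abl.2, 229 and 217 TPM in Abl.3, and 211 and 207 TPM in Abl.4. Abl.2 lay above the other lines, which did not overlap either. The excess in Abl.2 was 0.35 over Abl.4 (SE 0.07, limma adjusted p = 0.0120) and 0.25 over Abl.3 (SE 0.07, adjusted p = 0.0323). The call against Abl.3 was lost when any of the 4 libraries compared was left out (adjusted p from 0.0744 to 0.162), and the call against Abl.4 without the first Abl.2 library (adjusted p = 0.0877).

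Pax5 (chr4:44524757-44710487, minus strand), the commitment factor, differed most between lines by TPM. The libraries held 246 and 207 TPM in Abl.2, 56.2 and 64.0 TPM in Abl.3, and 156 and 165 TPM in Abl.4. The 3 lines were fully separated, with Abl.3 lowest. Pax5 was higher in Abl.2 than in Abl.3 by 1.89 (SE 0.11, limma adjusted p = 6.52e-05) and 2.67-fold lower in Abl.3 than in Abl.4 (log2 difference -1.41, SE 0.11, adjusted p = 0.000270). The excess in Abl.2 over Abl.4 was 0.49 (SE 0.11, adjusted p = 0.0175), a call lost without the first Abl.2 library or either Abl.4 library (adjusted p of 0.106, 0.0830 and 0.0640). Summed allelic counts, which for Pax5 amounted to 262 to 723 per library, gave smaller differences in the same directions. They were 0.88 (edgeR adjusted p = 0.000983) for Abl.2 against Abl.3, -0.66 (adjusted p = 0.00661) for Abl.3 against Abl.4, and 0.21 (adjusted p = 0.287) for Abl.2 against Abl.4. By these counts Pax5 was not the most variable factor, since differences reached -1.41 for Ikzf3, -1.30 for Bach2 and -1.22 for Irf8. Why TPM and allelic counts differ in size for this gene was not tested.

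Both Ikaros family members had their highest mean in Abl.4 and were lower in Abl.3 than in Abl.4. Ikzf1 (chr11:11685003-11772926, plus strand), which encodes Ikaros, stood at 112 and 108 TPM in Abl.2, 72.8 and 61.1 TPM in Abl.3, and 137 and 128 TPM in Abl.4. Abl.3 lay below both other lines. Ikzf1 was 1.98-fold lower in Abl.3 than in Abl.4 (log2 difference -0.98, SE 0.10, limma adjusted p = 0.000802) and higher in Abl.2 than in Abl.3 by 0.71 (SE 0.10, adjusted p = 0.00248), whereas the difference between Abl.2 and Abl.4 of -0.27 missed the threshold (95% interval -0.51 to -0.02, adjusted p = 0.0896; adjusted p = 0.0308 with the library number as a block). Ikzf3 (chr11:98464902-98546031, minus strand), which encodes Aiolos, a relative that rises as B-cell precursors mature, was the least abundant member. Its abundance was 13.3 and 14.6 TPM in Abl.2, 16.5 and 17.8 TPM in Abl.3, and 34.1 and 32.2 TPM in Abl.4. Abl.4 lay above both others, 2.38-fold over Abl.2 (log2 difference -1.19, SE 0.10, adjusted p = 0.000331) and 1.93-fold over Abl.3 (-0.91, SE 0.10, adjusted p = 0.00109). The difference of -0.28 between Abl.2 and Abl.3 missed the threshold (adjusted p = 0.0704) although the libraries did not overlap, and it passed with quantile normalisation (-0.45, adjusted p = 0.0149) and with summed allelic counts (-0.68, edgeR adjusted p = 0.000267).

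Spi1 (chr2:91082390-91115756, plus strand) was the most even member by TPM, whereas by summed allelic counts Ebf1 was more even. The libraries held 93.9 and 92.4 TPM in Abl.2, 126 and 101 TPM in Abl.3, and 120 and 104 TPM in Abl.4. Abl.2 lay lowest by a small margin, and the other lines overlapped. No TPM difference passed the threshold: -0.27 for Abl.2 against Abl.3 (95% interval -0.58 to 0.03, limma adjusted p = 0.135), -0.26 for Abl.2 against Abl.4 (-0.57 to 0.04, adjusted p = 0.160), and 0.01 for Abl.3 against Abl.4 (-0.30 to 0.31). Summed allelic counts called both deficits of Abl.2 (-0.43, edgeR adjusted p = 0.00587, and -0.31, adjusted p = 0.0340), and quantile normalisation called the one against Abl.3 (-0.34, adjusted p = 0.0496), as did limma with the library number as a block (-0.27, adjusted p = 0.0451).

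The interferon regulatory factors, which bind DNA with PU.1 at immunoglobulin light chain enhancers, both had their highest mean in Abl.4. Irf8 (chr8:120736358-120756694, plus strand) stood at 212 and 202 TPM in Abl.2, 251 and 218 TPM in Abl.3, and 489 and 417 TPM in Abl.4. Abl.4 was well above the others, 2.19-fold over Abl.2 (log2 difference -1.12, SE 0.11, limma adjusted p = 0.000531) and 1.93-fold over Abl.3 (-0.94, SE 0.11, adjusted p = 0.00118). Between Abl.2 and Abl.3 the difference was -0.18 (95% interval -0.44 to 0.08, adjusted p = 0.236), and summed allelic counts called it (-0.45, edgeR adjusted p = 0.00322). Irf4 (chr13:30749226-30766976, plus strand) had a narrower range, with 72.2 and 75.5 TPM in Abl.2, 56.6 and 56.5 TPM in Abl.3, and 77.5 and 87.7 TPM in Abl.4. Abl.3 was lowest, with a difference of -0.54 from Abl.4 (SE 0.09, adjusted p = 0.00492), and Abl.2 exceeded it by 0.38 (SE 0.09, adjusted p = 0.0159). Between Abl.2 and Abl.4 the Irf4 difference of -0.16 was not called (95% interval -0.37 to 0.05, adjusted p = 0.215). The call of Abl.2 against Abl.3 for Irf4 was lost without any of the 4 libraries, where the difference was 0.35 to 0.41. It was also lost with quantile normalisation (0.26, limma adjusted p = 0.0674), while summed allelic counts kept it (0.28, edgeR adjusted p = 0.0195).

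Bach2 (chr4:32238804-32586108, plus strand) was highest in Abl.4 and lowest in Abl.3. Its libraries held 42.4 and 43.0 TPM in Abl.2, 30.2 and 24.97 TPM in Abl.3, and 76.9 and 93.5 TPM in Abl.4. The lines did not overlap. Bach2 was 3.09-fold lower in Abl.3 than in Abl.4 (log2 difference -1.59, SE 0.13, limma adjusted p = 0.000312), lower in Abl.2 than in Abl.4 (-0.97, SE 0.13, adjusted p = 0.00217) and higher in Abl.2 than in Abl.3 by 0.62 (SE 0.13, adjusted p = 0.0112). The last call was lost without either Abl.2 library or the second Abl.3 library (adjusted p of 0.0643, 0.0703 and 0.0704), while summed allelic counts kept it (0.40, edgeR adjusted p = 0.00748).

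Counted together, 7 of the 10 factors were called between Abl.2 and Abl.3 by limma, all higher in Abl.2, where 39.8% of all tested genes were called and 25.9% were called higher in Abl.2. Without either Abl.2 library or the second Abl.3 library the count was 3, and the share of all genes was then 23.1%, 22.4% and 23.8%. Between Abl.3 and Abl.4, 7 of 10 were called, all higher in Abl.4, against 38.1% of all genes called and 26.8% called higher in Abl.4. Between Abl.2 and Abl.4, 6 of 10 were called, against 33.5% of all genes; 3 were higher in Abl.2 (15% of all genes) and 3 in Abl.4 (18.4%). With an absolute log2 difference of at least 1 also required, 1 factor was left for Abl.2 against Abl.3, 2 for Abl.2 against Abl.4 and 2 for Abl.3 against Abl.4, against 10.5%, 10.1% and 9.47% of all genes. The 3 comparisons share lines and are not independent. The median log2 difference of the 10 factors was 0.33 for Abl.2 against Abl.3, -0.21 for Abl.2 against Abl.4 and -0.72 for Abl.3 against Abl.4, beside 0.10, -0.03 and -0.15 over all tested genes. Quantile normalisation moved the all-gene medians to 0.00, 0.03 and 0.03 and those of the factors to 0.27, -0.22 and -0.56. Under it, the share of called genes higher in the line named first went from 65.0% to 51.4% for Abl.2 against Abl.3 and from 29.8% to 52.0% for Abl.3 against Abl.4; with summed allelic counts the shares were 52.4% and 46.7%. For Abl.2 against Abl.4 the share went from 44.9% to 52.8%, and it was 49.3% with summed allelic counts. The split of the factors moved in some comparisons as well. Summed counts, however, changed the input, the scaling between libraries, the test and the genes covered at once. Between Abl.2 and Abl.3, quantile normalisation called 6 factors higher in Abl.2 and 2 (Ikzf3 and Spi1) higher in Abl.3, and summed allelic counts of 8 factors, without Ikzf1 and Foxo1, called 4 higher in Abl.2 and 3 (Ikzf3, Spi1 and Irf8) higher in Abl.3. Between Abl.2 and Abl.4, the split was 3 and 3 with quantile normalisation, whereas summed counts called 1 factor (Tcf3) higher in Abl.2 and 4 higher in Abl.4. Between Abl.3 and Abl.4, the called factors were higher in Abl.4 under both, 7 and 5 in number. Of all genes, 36.6%, 34.7% and 33.3% were called in the 3 comparisons with quantile normalisation, and 42.1%, 37.2% and 37.3% with summed counts. No factor called by limma on TPM turned its sign.

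**Figure D2:**
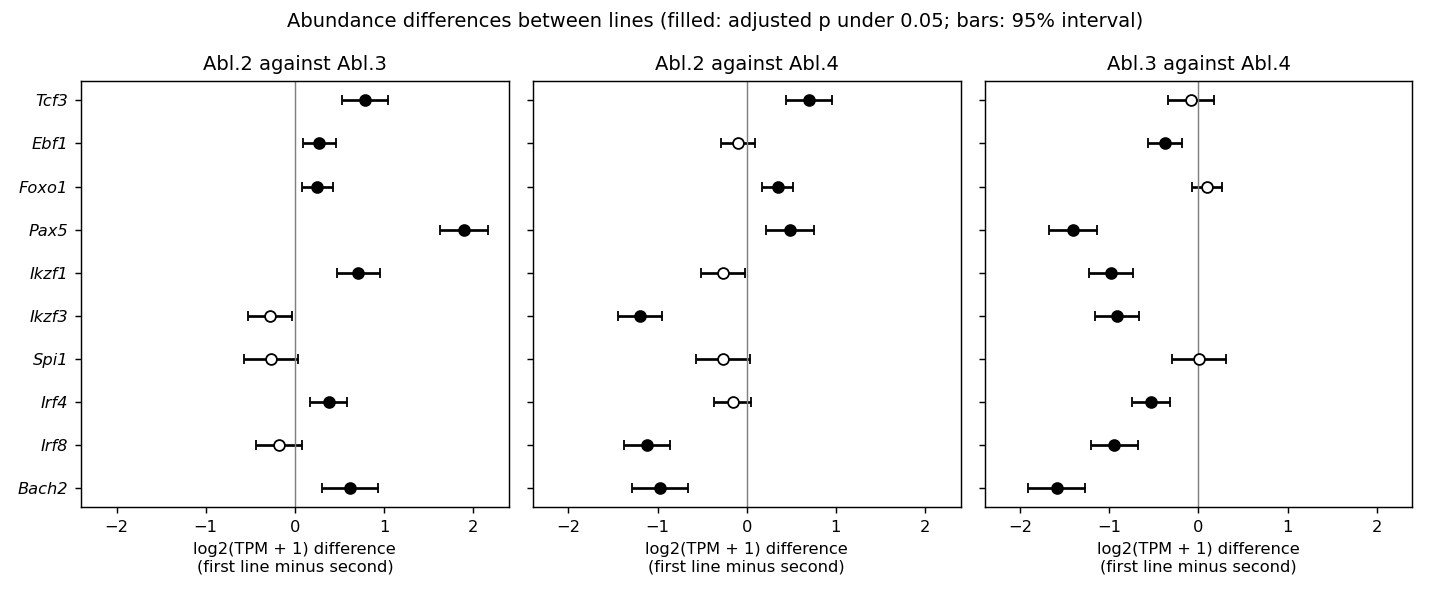
Differences in log2(TPM + 1) between lines (horizontal axes, the line named first minus the line named second) for the 10 factors; points are limma estimates, bars are 95% intervals, and filled points have an adjusted p under 0.05. All 7 called factors lie on the Abl.2 side against Abl.3 and on the Abl.4 side of Abl.3 against Abl.4, whereas 3 lie on each side for Abl.2 against Abl.4. With summed allelic counts of 8 factors, 4 were called higher in Abl.2 and 3 in Abl.3, and 1 in Abl.2 and 4 in Abl.4.

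The sequence before the start site is given for the factors whose line means spanned at least 1 on the log2 scale and that matched a row of the table of RefSeq promoters used here (GRCm38.p6), as the regulatory sequence adjoining the most variable members. Of the 10 factors, 8 matched, and the promoters of Ikzf3 and Spi1 were not analysed here. Each run is 250 bases, 5′ to 3′ on the gene's strand and ends just before the RefSeq start site, with motif matches in capitals. They lie at chr4:44710695-44710944 (minus strand, Pax5), chr8:120736108-120736357 (plus strand, Irf8) and chr4:32417185-32417434 (plus strand, Bach2). The RefSeq start of Bach2 lies 178631 bases inside the gene as GENCODE draws it, and that of Pax5 lies 207 bases upstream of the GENCODE gene.
Pax5: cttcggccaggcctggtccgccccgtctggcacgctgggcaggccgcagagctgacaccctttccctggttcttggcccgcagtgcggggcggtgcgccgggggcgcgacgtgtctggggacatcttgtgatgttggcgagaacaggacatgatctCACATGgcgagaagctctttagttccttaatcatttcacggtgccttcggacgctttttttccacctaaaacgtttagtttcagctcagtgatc
Irf8: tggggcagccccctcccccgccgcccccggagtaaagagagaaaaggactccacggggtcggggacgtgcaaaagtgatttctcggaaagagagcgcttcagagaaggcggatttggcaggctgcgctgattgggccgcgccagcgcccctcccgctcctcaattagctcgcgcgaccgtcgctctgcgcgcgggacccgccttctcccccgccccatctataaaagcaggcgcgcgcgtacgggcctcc
Bach2: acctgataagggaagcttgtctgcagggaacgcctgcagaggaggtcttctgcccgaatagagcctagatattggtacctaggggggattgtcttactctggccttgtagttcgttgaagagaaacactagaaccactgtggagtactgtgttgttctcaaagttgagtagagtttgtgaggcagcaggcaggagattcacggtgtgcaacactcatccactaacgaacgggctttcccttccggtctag
The motifs searched on both strands were the E-box bound by E proteins (CANNTG), an EBF palindrome (CCCNNGGG), an Ikaros core (TGGGAA), an ETS core (GGAAGT), a forkhead site (TGTTTAC) and an interferon response element (GAAA, any 2 bases, then GAAA). Pax5 held 1 E-box, shown in capitals, and no other match, and Irf8 and Bach2 held none of these letters in the window. Among all 32851 promoters of that length, 66.2% held an E-box, 11.8% the EBF motif, 21.6% the Ikaros core, 19.7% the ETS core, 3.17% the forkhead site and 2.98% the interferon response element. These matches are descriptions of the letters only.

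The 2 alleles of 8 factors were compared within each library through the maternal share, the maternal part of the counts at positions that differ between the parental strains. In Abl.2 the shares of Pax5, Bach2 and Ikzf3 were near 1, in contrast with Abl.3 and Abl.4, whereas Ebf1 and Irf8 departed from equality by similar amounts in all 3 lines. Shares were tested with edgeR's quasi-likelihood test across 8702 genes, with Benjamini-Hochberg adjustment. Imbalance against equal counts was called for 7 of 8 factors in Abl.2 (49.1% of all genes), 4 toward the maternal (24.7%) and 3 toward the paternal allele (24.4%). It was called for 6 of 8 in Abl.3 (45.1%), 4 maternal (22.5%) and 2 paternal (22.6%), and for 7 of 8 in Abl.4 (39.9%), 4 maternal (19.2%) and 3 paternal (20.7%). A difference in allele ratio was called for 6 of 8 factors between Abl.2 and Abl.3 (28.4% of all genes), for 7 of 8 between Abl.2 and Abl.4 (22.3%) and for 1 of 8, Ikzf3, between Abl.3 and Abl.4 (16.5%). With a share difference of at least 0.2 also required, the counts were 3, 3 and 0 of 8, against 15.1%, 12% and 6.92% of all genes. Intervals for paternal percents are 95% binomial intervals by Wilson's method; without molecular identifiers they cover counting error only.

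**Figure D3:**
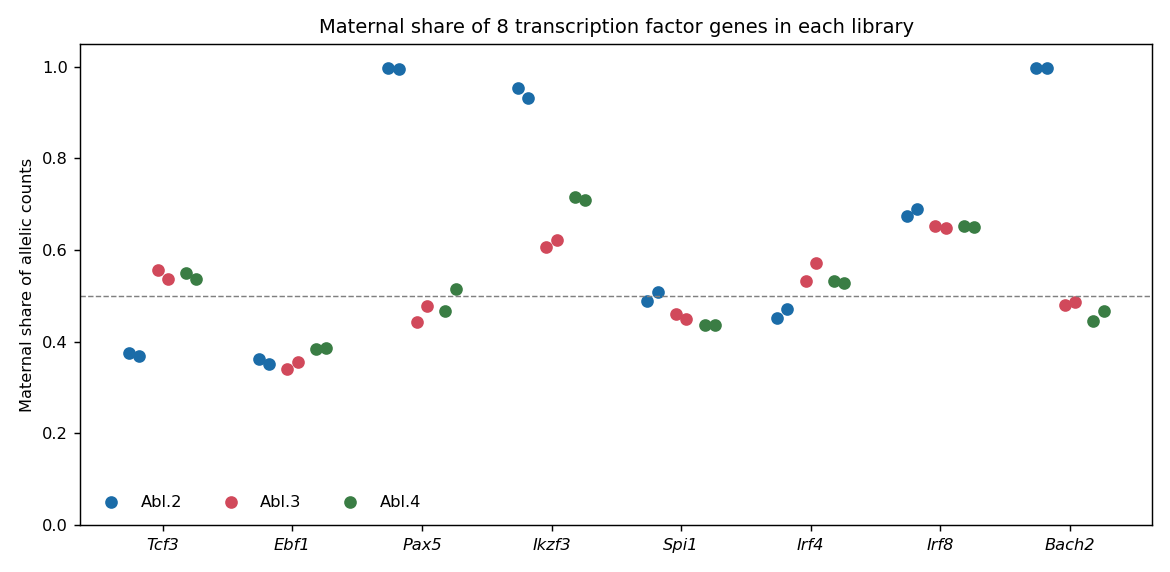
Maternal share of allelic counts (vertical axis, 0 to 1) for 8 factors in each library of Abl.2, Abl.3 and Abl.4; points are libraries and the dashed line marks an equal share of 0.5. Pax5, Ikzf3 and Bach2 are above 0.9 in Abl.2 alone, and Tcf3 and Irf4 lie below 0.5 in Abl.2 and above it in the other lines.

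Pax5 and Bach2, both on chromosome 4, gave almost only maternal counts in Abl.2. Pax5 had 1 paternal count of 544 in the first Abl.2 library (0.184%, interval 0.0325% to 1.03%) and 4 of 723 in the second (0.553%, interval 0.215% to 1.41%). Bach2 had 8 of 2576 (0.311%, interval 0.157% to 0.612%) and 5 of 2837 (0.176%, interval 0.0753% to 0.412%). These are of the size of the paternal percent at 222 X-linked genes of Abl.3, labelled male, which was 0.394% and 0.305% and serves as a background for misassigned counts. The share of Pax5 was 0.996 ± 0.0026 (SD, n = 2) in Abl.2, against 0.460 ± 0.024 in Abl.3 and 0.491 ± 0.034 in Abl.4, and that of Bach2 was 0.998 ± 0.00095, 0.483 ± 0.0049 and 0.457 ± 0.016. Neither gene was called imbalanced in Abl.3, nor Pax5 in Abl.4. Bach2 was called in Abl.4 (edgeR adjusted p = 0.0239), a call lost without either Abl.4 library (adjusted p of 0.237 and 0.0530) and with DESeq2 (adjusted p = 0.260). In the authors' deposited table, the limits for Bach2 in Abl.4 (0.4 to 0.51) included 0.5. Between Abl.2 and Abl.3 the difference in log2 allele ratio was 8.14 for Pax5 (edgeR adjusted p = 2.39e-08) and 8.77 for Bach2 (adjusted p = 3.35e-11). These sizes depend on the few paternal counts, and no SE is given for them.

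Most neighbours of both genes also had shares of 0.9 or above in Abl.2. Within 5 Mb, 58 tested neighbours of Pax5 had a median share of 0.998 in Abl.2, against 0.516 in Abl.3 and 0.502 in Abl.4, and 53 of the 58 were at 0.9 or above in Abl.2. All 15 neighbours of Bach2 were at 0.9 or above in Abl.2, with a median of 0.999. The median over 554 genes of chromosome 4 was 0.998 in that line. For abundance, 84 neighbours of Pax5 and 22 of Bach2 were tested. The median abundance difference of these Pax5 neighbours was 0.23 for Abl.2 against Abl.3 and 0.10 for Abl.2 against Abl.4, beside 1.89 and 0.49 for Pax5 itself; that of these Bach2 neighbours was 0.18 and 0.01, beside 0.62 and -0.97 for Bach2.

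Ikzf3, on chromosome 11, was the other factor with a share near 1 in Abl.2, and most of its neighbours did not share it. Its share was 0.943 ± 0.015 (SD, n = 2) in Abl.2, against 0.614 ± 0.011 in Abl.3 and 0.712 ± 0.0050 in Abl.4. Maternal counts exceeded paternal ones in every library, and the lines did not overlap. The Abl.2 libraries held 76 paternal counts of 1637 (4.64%) and 144 of 2136 (6.74%), above the X-linked background of 0.394% and 0.305%. The allele ratio of Ikzf3 in Abl.2 exceeded that in Abl.3 by 3.36 on the log2 scale (SE 0.16, edgeR adjusted p = 2.39e-08) and that in Abl.4 by 2.72 (SE 0.16, adjusted p = 1.75e-07), and the ratio in Abl.3 was below that in Abl.4 (-0.64, SE 0.13, adjusted p = 0.00811). The last call was lost without the first Abl.3 library (adjusted p = 0.0737). Within 5 Mb, 130 neighbours had median shares of 0.506 in Abl.2, against 0.508 in Abl.3 and 0.507 in Abl.4, and 3 of the 130 were at 0.9 or above in Abl.2. Among 7495 genes outside chromosomes 4 and 10, 100 genes (1.33%) had, like Ikzf3, a share of at least 0.9 in Abl.2 and below 0.9 in the other lines. In the authors' deposited table the maternal fraction of Ikzf3 was 0.94 (limits 0.91 to 0.97) in Abl.2, 0.61 (0.55 to 0.68) in Abl.3 and 0.71 (0.66 to 0.76) in Abl.4.

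**Figure D4:**
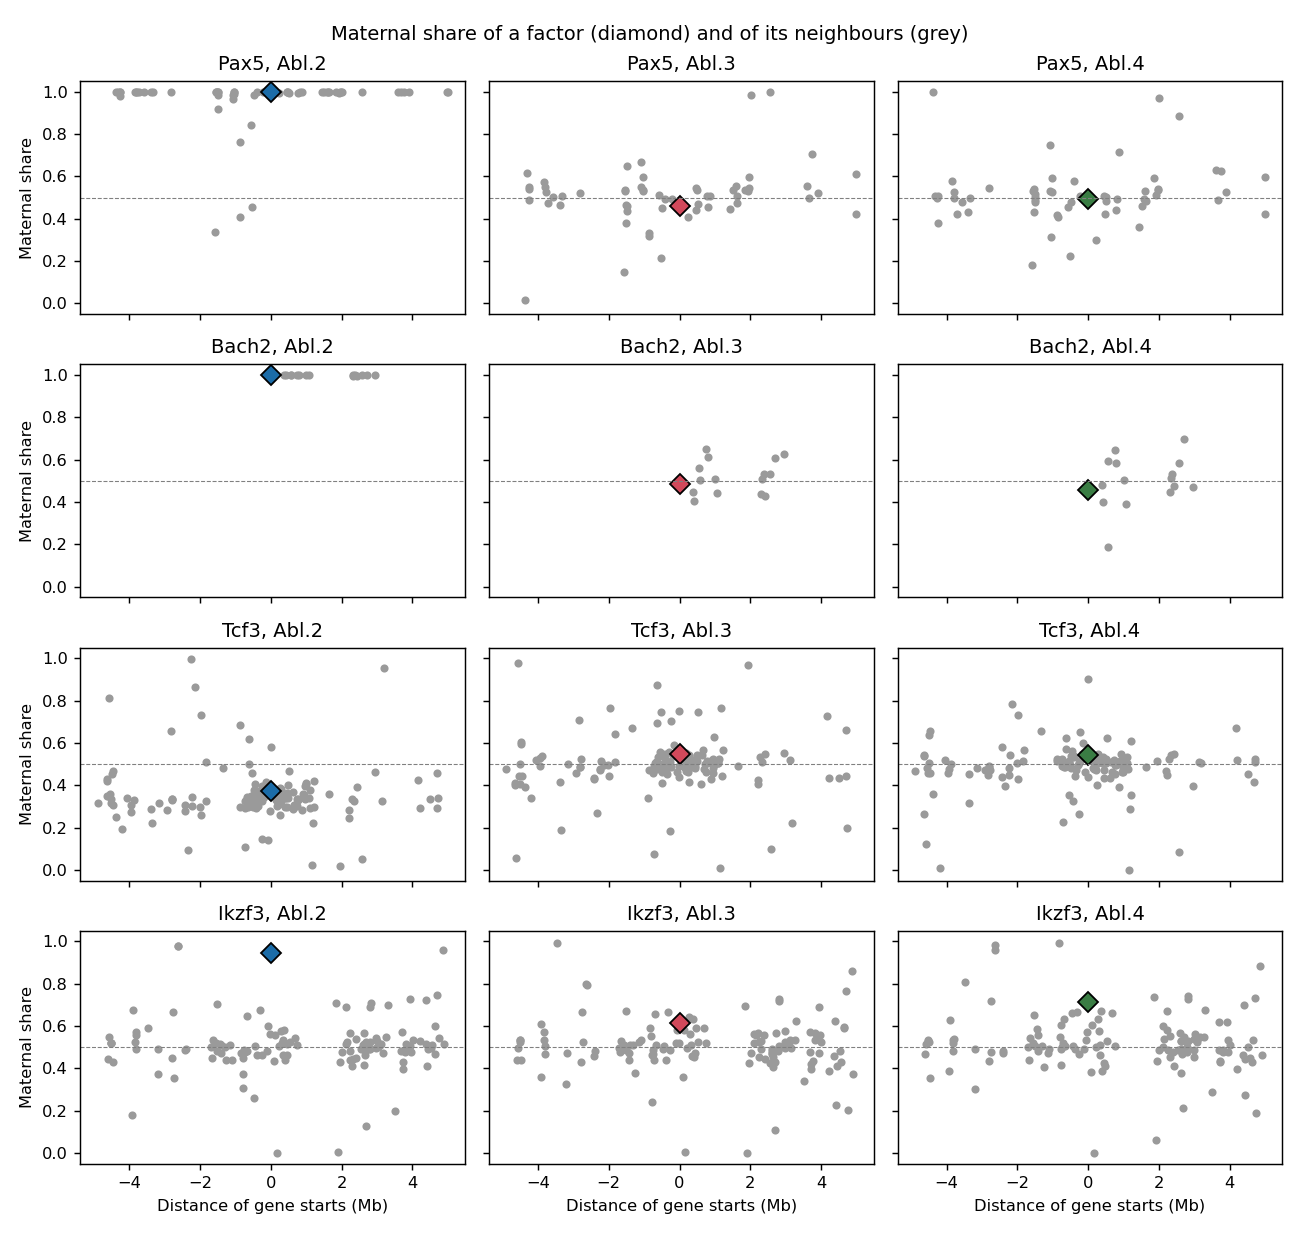
Maternal share (vertical axis) of tested genes against the distance of their starts in Mb (horizontal axis) from Pax5, Bach2, Tcf3 and Ikzf3 (rows) in the 3 lines (columns); grey points are neighbours within 5 Mb and the diamond is the factor itself. Pax5, Bach2 and Tcf3 lie among their neighbours in Abl.2, whereas Ikzf3 at 0.943 lies above a neighbour median of 0.506.

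Tcf3 was shifted the other way in Abl.2, as were most of its neighbours. Its share was 0.372 ± 0.0041 (SD, n = 2) in Abl.2, against 0.546 ± 0.013 in Abl.3 and 0.544 ± 0.0085 in Abl.4, from 11791 to 27058 counts per library. Abl.2 was below 0.5 and the other lines above it. The log2 allele ratio differed by -1.03 (SE 0.05, edgeR adjusted p = 6.06e-08) between Abl.2 and Abl.3 and by -1.01 (SE 0.05, adjusted p = 9.03e-08) between Abl.2 and Abl.4, and by 0.01 (SE 0.05) between Abl.3 and Abl.4. The 136 neighbours within 5 Mb had a median share of 0.336 in Abl.2, with 80% of them between 0.267 and 0.463, and medians of 0.496 and 0.502 in the other lines. Over the 151 genes within 5 Mb that were tested for abundance, the level was higher in Abl.2 by a median of 0.58 over Abl.3 and 0.57 over Abl.4, beside 0.79 and 0.70 for Tcf3. The median share of 431 tested genes of chromosome 10 was 0.337 in Abl.2.

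Ebf1 and Irf8 were imbalanced in the same direction in every line. The share of Ebf1 in Abl.2 was 0.358 ± 0.0078 (SD, n = 2), beside 0.348 ± 0.011 in Abl.3 and 0.385 ± 0.0015 in Abl.4, each below 0.5 with an edgeR adjusted p of at most 1.64e-06. Differences in its allele ratio missed the threshold in all 3 comparisons (log2 differences of 0.06, -0.17 and -0.23, adjusted p of 0.642, 0.131 and 0.0550). A share of at most 0.4 in all 3 lines was found for 462 of 7495 genes (6.16%) outside chromosomes 4 and 10. The share of Irf8 was 0.682 ± 0.010 in Abl.2, against 0.651 ± 0.0028 in Abl.3 and 0.651 ± 0.0011 in Abl.4, from 20652 to 43294 counts per library. Maternal counts were higher in all 6 libraries, and 509 of the 7495 genes (6.79%) had a share of at least 0.6 in all 3 lines. Within 5 Mb the median share of 28 neighbours of Ebf1 lay between 0.525 and 0.548, and that of 67 neighbours of Irf8 was 0.512 in Abl.2 and 0.505 in Abl.4. The ratio of Irf8 was higher in Abl.2 by 0.20 against either line (adjusted p = 0.00513 and 0.00663), and both calls were lost without the second Abl.2 library (adjusted p of 0.0555 and 0.0740).

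Irf4 and Spi1 lay near equality. The share of Irf4 was 0.462 ± 0.013 (SD, n = 2) in Abl.2, against 0.553 ± 0.027 in Abl.3 and 0.530 ± 0.0036 in Abl.4, and the ratio in Abl.2 was lower than in Abl.3 (-0.52, SE 0.08, edgeR adjusted p = 0.000556) and Abl.4 (-0.39, SE 0.08, adjusted p = 0.00454). Its imbalance was called in each line and was lost in Abl.2 without the first library (adjusted p = 0.169), in Abl.3 without the second (adjusted p = 0.0669) and in Abl.4 without either (adjusted p of 0.172 and 0.110). In Abl.4 it was also lost with DESeq2 (adjusted p = 0.0834) and when equality was set at the libraries' allele totals (edgeR adjusted p = 0.0631). The share of Spi1 was 0.499 ± 0.014 in Abl.2, against 0.456 ± 0.0077 in Abl.3 and 0.437 ± 0.00022 in Abl.4. It was not called imbalanced in Abl.2 and was called in Abl.3 (adjusted p = 0.0132), a call lost without either Abl.3 library (adjusted p of 0.0646 and 0.125), and in Abl.4 (adjusted p = 0.00197). The difference of Spi1 between Abl.2 and Abl.4 (0.36, adjusted p = 0.0238) was lost without any of the 4 libraries (adjusted p from 0.0590 to 0.192). In the authors' deposited table, the limits for Spi1 included 0.5 in all 3 lines, as did those for Irf4 in Abl.4 (0.49 to 0.57).

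The level of each allele, as allelic counts scaled to a common library total (allelic CPM), was then compared between lines with edgeR, a comparison chosen after the shares had been seen. For Ikzf3 the maternal level was similar in Abl.2 and Abl.3 while the paternal level was far lower in Abl.2. The maternal allele of Ikzf3 gave 71.4 ± 3.0 (SD, n = 2) CPM in Abl.2, 74.2 ± 3.9 in Abl.3 and 143 ± 5.7 in Abl.4. The paternal allele gave 4.35 ± 1.4, 46.6 ± 4.6 and 57.9 ± 0.87. Between Abl.2 and Abl.3 the maternal difference was -0.05 (adjusted p = 0.710; the sign turned without the first Abl.3 library) and the paternal one -3.41 (adjusted p = 3.12e-09). Between Abl.3 and Abl.4 the maternal difference was -0.95 (adjusted p = 1.39e-05) and the paternal one -0.31 (adjusted p = 0.167).

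For Pax5 and Bach2 the maternal allele was higher in Abl.2 than in Abl.3. The maternal level of Pax5 was 25.3 ± 1.7 CPM in Abl.2, 6.37 ± 0.68 in Abl.3 and 10.7 ± 1.1 in Abl.4, and its paternal level was 7.45 ± 0.074 in Abl.3 and 11.1 ± 0.43 in Abl.4. The maternal excess of Pax5 in Abl.2 was 1.99 over Abl.3 (edgeR adjusted p = 2.14e-06) and 1.24 over Abl.4 (adjusted p = 0.000133). The maternal level of Bach2 was 109 ± 6.6 in Abl.2, against 40.05 ± 2.5 in Abl.3 and 93.1 ± 5.3 in Abl.4, and its paternal level was 43.0 ± 3.5 in Abl.3 and 110.5 ± 0.62 in Abl.4. The maternal excess of Bach2 in Abl.2 was 1.45 over Abl.3 (adjusted p = 4.11e-07) and 0.23 over Abl.4 (adjusted p = 0.120). Bach2 was lower in Abl.3 than in Abl.4 on both alleles, with differences of -1.22 on the maternal (adjusted p = 2.98e-06) and -1.36 on the paternal one (adjusted p = 2.29e-06).

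For Tcf3 the excess of Abl.2 lay on the paternal allele. Its paternal level was 685 ± 76 CPM in Abl.2, against 318 ± 16 in Abl.3 and 287 ± 27 in Abl.4, with differences of 1.11 (edgeR adjusted p = 1.51e-06) and 1.26 (adjusted p = 5.17e-07) from Abl.2 to the other lines. The maternal level of Tcf3 was 406 ± 52, 384 ± 40 and 343 ± 44, and no difference passed the threshold. For Irf8 both alleles were higher in Abl.4 than in Abl.2, with Abl.2 minus Abl.4 at -1.15 on the maternal (adjusted p = 1.70e-06) and -1.35 on the paternal one (adjusted p = 1.46e-07). The lower level of Spi1 in Abl.2 than in Abl.3 was called on the paternal allele (-0.55, adjusted p = 0.00213) and not on the maternal one (-0.30, adjusted p = 0.0533, called when either Abl.4 library was left out), and the allele ratio itself was not called between these lines (adjusted p = 0.0941). Of all 8702 genes, the maternal level was called for 39.4%, 33.4% and 33% in the 3 comparisons (Abl.2 against Abl.3, Abl.2 against Abl.4, Abl.3 against Abl.4) and the paternal level for 43.4%, 37.2% and 32.9%.

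**Figure D5:**
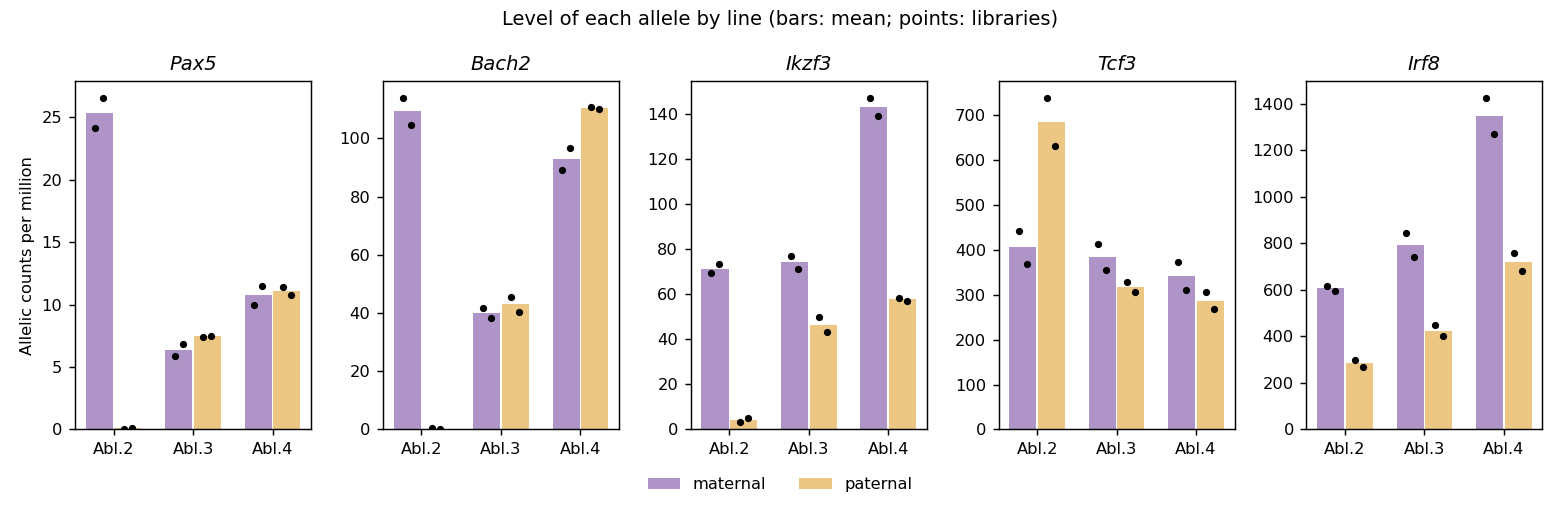
Maternal and paternal levels in CPM (vertical axes, each from 0) of Pax5, Bach2, Ikzf3, Tcf3 and Irf8 in the 3 lines; bars are line means and points are the 2 libraries. The paternal allele of Ikzf3 falls to 4.35 in Abl.2 while the maternal allele stands at 71.4 and 74.2 in Abl.2 and Abl.3, and Tcf3 in Abl.2 is raised on the paternal allele.

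Annotation limits how exactly some members can be read. All 10 are protein-coding, and no annotated gene overlaps Tcf3, Spi1 or Irf4. Genes on the same strand overlap Irf8 (Gm20388), Ikzf3 (Gm25106), Foxo1 (Gm38034), Bach2 (Bach2it1 and Gm24371) and Pax5 (Mir5120), and strand cannot separate their reads. Genes on the opposite strand overlap Pax5 (3, among them 5730488B01Rik), Bach2 (Bach2os), Ebf1, Ikzf1 and Foxo1. Whether counting used strand was not given in the sources used here, and without it the reads of these opposite pairs cannot be told apart.

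The other genes of the network were described from lists drawn up by function. Counts are of genes called by limma with Benjamini-Hochberg adjustment, in the order Abl.2 against Abl.3, Abl.2 against Abl.4, Abl.3 against Abl.4. Each list is to be read against all tested genes, of which 25.9% were called higher in Abl.2 and 14% in Abl.3, 15% in Abl.2 and 18.4% in Abl.4, and 11.3% in Abl.3 and 26.8% in Abl.4, with medians of 0.10, -0.03 and -0.15. Of 19 relatives of the factors in the same families, 12 were tested. Of these, 8 were higher in Abl.2 and 2 in Abl.3 (median 0.48), 6 were higher in Abl.2 and 2 in Abl.4 (median 0.28), and 2 were higher in Abl.3 and 4 in Abl.4 (median -0.29). Spib, the close relative of Spi1 that can share its functions in B cells, varied more widely, with 8.40 ± 0.64 TPM (SD, n = 2) in Abl.2, 37.9 ± 4.3 in Abl.3 and 20.1 ± 0.028 in Abl.4. Spib was lower in Abl.2 than in Abl.3 (log2 difference -2.04, limma adjusted p = 5.77e-05). Irf7, an interferon-induced relative of Irf4 and Irf8, stood at 25.4 ± 0.078 TPM in Abl.2, 4.92 ± 0.42 in Abl.3 and 3.63 ± 0.68 in Abl.4. Foxo3, a relative of Foxo1 on chromosome 10, stood at 23.3 ± 2.8, 7.31 ± 0.51 and 13.5 ± 0.028 TPM.

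Among 16 tested partners and inhibitors of the factors, 8 were higher in Abl.2 and 1 in Abl.3, 3 in Abl.2 and 2 in Abl.4, and 2 in Abl.3 and 5 in Abl.4, with medians of 0.42, 0.16 and -0.34. Id3, which binds the Tcf3 product and keeps it from DNA, stood at 456 ± 0.99 TPM in Abl.2, 388 ± 29 in Abl.3 and 106 ± 9.1 in Abl.4. Id3 was higher than in Abl.4 by 2.09 in Abl.2 (limma adjusted p = 2.10e-05) and by 1.86 in Abl.3 (adjusted p = 3.73e-05). Between Abl.2 and Abl.3 the Id3 difference of 0.23 missed the threshold (adjusted p = 0.0838). With quantile normalisation it passed (0.28, limma adjusted p = 0.0400). Id1, another inhibitor of E proteins, was lowest in Abl.2, at 1.63 ± 0.42, 7.25 ± 1.4 and 5.80 ± 0.12 TPM. Id2, a further and more abundant inhibitor that is named after its values were seen, stood at 102 ± 4.6, 87.7 ± 5.6 and 44.2 ± 0.38 TPM and, like Id3, was lowest in Abl.4 (1.19 for Abl.2 against Abl.4, limma adjusted p = 0.000132, and 0.97 for Abl.3 against Abl.4, adjusted p = 0.000372). Batf, a partner of Irf4 and Irf8 at composite sites, stood at 144 ± 14, 57.0 ± 6.6 and 79.5 ± 5.4 TPM.

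The 16 genes listed as activated by these factors showed 7 higher in Abl.2 and 3 in Abl.3, 3 higher in Abl.2 and 8 in Abl.4, and 3 higher in Abl.3 and 9 in Abl.4, with medians of 0.16, -0.29 and -0.49. Blk, a B-cell tyrosine kinase gene, had the widest range, at 2.91 ± 0.028 TPM in Abl.2, 30.045 ± 1.4 in Abl.3 and 188 ± 8.2 in Abl.4. Blk was lower in Abl.2 than in Abl.3 (log2 difference -2.99, limma adjusted p = 5.78e-06) and lower in Abl.3 than in Abl.4 (-2.60, adjusted p = 1.57e-05). Pax5 was higher in Abl.2 in the first pair and lower in Abl.3 in the second. The relation of Blk to Pax5 was not tested. Fcrla followed the same order, at 3.10 ± 0.15, 25.8 ± 1.5 and 50.5 ± 4.8 TPM. Dntt, the gene of terminal deoxynucleotidyl transferase, stood at 2.96 ± 0.87, 1.39 ± 0.48 and 12.5 ± 0.092 TPM.

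Of 8 genes listed as repressed by Pax5, 4 reached the filter. The relation of the listed genes to the level of Pax5 was not tested. Prdm1, which drives plasma cell differentiation, was lowest in Abl.3, at 5.58 ± 0.55 TPM. It stood at 15.3 ± 0.19 TPM in Abl.2 and 12.1 ± 0.47 in Abl.4. The difference was 1.31 between Abl.2 and Abl.3 (limma adjusted p = 0.000386) and -1.0 between Abl.3 and Abl.4 (adjusted p = 0.00127). Of these 4 genes, 2 were called higher in Abl.2 against Abl.3, none between Abl.2 and Abl.4 and 1 higher in Abl.4 against Abl.3, with medians of 0.32, 0.07 and -0.25. With quantile normalisation Prdm1 was also called higher in Abl.2 than in Abl.4 (0.41, limma adjusted p = 0.0418). Prdm1 lies on chromosome 10, where the median TPM difference of tested genes was 0.59 for Abl.2 against Abl.3 and 0.44 for Abl.2 against Abl.4. Notch1, which directs progenitors to the T lineage, stood at 17.8 ± 1.4, 14.0 ± 5.5 and 17.0 ± 0.65 TPM with no call, but without the first Abl.3 library its level in Abl.3 was below those in Abl.2 (0.75, limma adjusted p = 0.0210) and Abl.4 (-0.69, adjusted p = 0.0316). With summed allelic counts Notch1 was called higher in Abl.2 than in Abl.3 (0.65, edgeR adjusted p = 0.00106) and than in Abl.4 (0.57, adjusted p = 0.00290), beside 0.37 and 0.06 by TPM. Ccr2, a chemokine receptor gene, was at 0.95 ± 0.13, 1.65 ± 0.30 and 0.895 ± 0.25 TPM. Ccr2 passed the filter on mean TPM only through its level in Abl.3, so no TPM test of it is given. It is counted among the 4 genes and in their medians, but none of the TPM calls is its own. With summed allelic counts Ccr2 was called higher in Abl.3 than in Abl.2 (-1.65, edgeR adjusted p = 0.00175) and than in Abl.4 (1.46, adjusted p = 0.00473).

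Of 11 other B-lineage factors, 4 were higher in Abl.2 and 4 in Abl.3, 2 in Abl.2 and 5 in Abl.4, and 1 in Abl.3 and 5 in Abl.4, with medians of -0.13, -0.20 and -0.06. Gfi1, a repressor gene, was at 0.91 ± 0.52 TPM in Abl.2 and 0.30 ± 0.057 in Abl.4 and at 13.5 ± 2.4 in Abl.3, through which alone it passed the filter. The counts and medians above include Gfi1, for which no test is given. It was 1 of the 4 higher in Abl.3 than in Abl.2, and the only 1 higher in Abl.3 than in Abl.4. Mef2c, a MADS-box factor of B-cell precursors, followed Bach2 in its order of lines, at 23.9 ± 0.14, 16.2 ± 0.40 and 48.0 ± 3.2 TPM. The Mef2c difference between Abl.2 and Abl.3 (0.53, limma adjusted p = 0.00536) was not called with summed allelic counts (0.24, edgeR adjusted p = 0.518). Klf2 stood at 26.6 ± 0.61, 42.5 ± 3.4 and 81.0 ± 2.4 TPM.

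For each factor whose line means spanned at least 1 on the log2 scale, the 2 genes with the most similar pattern over the 6 libraries were taken from 2081 candidates whose own line means spanned at least 1. They were L3mbtl3 and Serf1 for Pax5 (Pearson r of 0.996 for both), Tlr6 and Clec16a for Ikzf3 (0.998 and 0.997), Bcl2l14 and Srpk3 for Irf8 (0.999 and 0.998), and Fam91a1 and Six5 for Bach2 (both 0.993). The 6 libraries hold only 3 lines, and the genes were picked as the best of many, so these values describe likeness and carry no test. Clec16a, for example, was at 16.1 and 16.7 TPM in Abl.2, 19.9 and 21.3 TPM in Abl.3, and 37.3 and 34.2 TPM in Abl.4, the same order of lines as Ikzf3.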

How the data were processed

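RNA-seq of 3 mouse B-cell lines, 2 libraries each, was analysed from the authors' tables. The deposited abundance table holds TPM per library; per the file headers, DESeq2 was used to make them. The deposited allelic table holds whole-number counts per allele at SNP positions within genes, per the file headers. A further deposited table holds the authors' maternal fraction per line with limits. The submitters' processing notes name STAR 2.5.4a, SAMtools, GATK and DESeq2 and the builds GRCm38, mm10 and GRCh37, without roles. Gene starts matched GENCODE M21 (GRCm38) for 98.7% of 35412 genes. Whether counting used strand, and whether a read over several SNPs was counted once, is not given in the sources used here. Which strain was the mother was not used here.

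Groups are the lines named in the sample titles. The lists and the 10 members were chosen with earlier results of these data known. Genes needed a mean of at least 1 TPM, and log2(TPM + 1) was tested with limma 3.58.1 (R 4.3.3) over all lines with a mean-variance trend; a fold change on that scale understates the change of low genes. The fit had 3 residual degrees of freedom among libraries. Allelic counts needed at least 20 in every library and were tested with the quasi-likelihood functions of edgeR 4.0.16, in a model holding a baseline for each library and an allele term for each line. The SEs given for log2 allele ratios were derived from the estimate and the F statistic of its test, so they are approximate. Each family was adjusted by Benjamini-Hochberg over all tested genes at 0.05. Alternatives were other pseudocounts, filters, quantile normalisation, summed allelic counts, DESeq2 1.42.0 on the allelic counts, a null at the libraries' allele totals, a replicate block, minimum effects and leaving out each library, where a lone library is assumed to vary like the others. The level of a single allele was added after the data were seen. The functions that fit the abundance, allelic and single-allele models were checked on simulated data, and the other steps were not checked in this way.

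Named genes were all members, up to 3 genes per list with the widest range of line means, and 2 most similar genes for each member spanning at least 1 log2. Replicates of a line differed beyond sampling noise (chi-square over degrees of freedom of 15.6, 12.5 and 21.8 over 8702 genes) and were kept as separate libraries.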

Additional observations from a re-analysis of the deposited data

Results flagged for a closer look

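The allele ratio of 7 factors differed between lines by the edgeR quasi-likelihood test of the difference itself, each with an adjusted p under 0.05. Between Abl.2 and Abl.3 these were 6 of 8 factors (28.4% of all genes), between Abl.2 and Abl.4 7 of 8 (22.3%) and between Abl.3 and Abl.4 1 of 8 (16.5%). Values are differences in the log2 ratio of maternal to paternal counts, the line named first minus the other. Bach2 stood 8.77 higher in Abl.2 than in Abl.3 and 8.91 higher than in Abl.4, and Pax5 8.14 and 7.95 higher. Ikzf3 differed by 3.36 and 2.72 in these comparisons and by -0.64 between Abl.3 and Abl.4. Tcf3 differed by -1.03 and -1.01, and Irf4 by -0.52 and -0.39. Irf8 differed by 0.20 in both, and Spi1 by 0.36 between Abl.2 and Abl.4. The Ikzf3 difference between Abl.3 and Abl.4, both Irf8 differences and the Spi1 difference each lost their call when a single library was left out. With 2 libraries per line, no test for an outlying library was possible.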

How the results depend on the processing

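The lines share the numbers 1 and 2 for library preparations. Deviations of same-numbered libraries correlated at 0.10, 0.19 and 0.16 over 11003 genes, and no label ties a number to a shared day. With the number as a replicate block the counts of called factors were 8, 7 and 7 for abundance (7, 6 and 7 without), the added calls being Spi1 for Abl.2 against Abl.3 (-0.27) and Ikzf1 for Abl.2 against Abl.4 (-0.27; Id3, no factor, was added for Abl.2 against Abl.3 at 0.23), and 47.4%, 41.9% and 47.1% of all genes were called; no allelic call of a factor changed. In the order Abl.2 against Abl.3, Abl.2 against Abl.4, Abl.3 against Abl.4, requiring an absolute log2 difference of at least 1 left 1, 2 and 2 factors. Requiring a share at least 0.1 from 0.5 left 3 imbalanced factors in Abl.3 and 3 in Abl.4, and a share difference of at least 0.2 left 3, 3 and 0. Leaving out each library gave 3 to 7, 4 to 6 and 6 to 7 factors for abundance, 6 to 7, 4 to 6 and 5 to 7 imbalanced factors in Abl.2, Abl.3 and Abl.4, and 5 to 6, 5 to 7 and 0 to 1 allelic differences. Over all genes, imbalance was then called for 36.8% to 50.9%, 31.5% to 47.1% and 31.6% to 39.2%, and allelic differences for 23.7% to 29.9%, 18.9% to 21.98% and 11.9% to 15.1%. Over all genes, the percent called for abundance was 23.3, 20.8 and 23.6 with no filter, 10.5, 10.1 and 9.47 with the minimum log2 difference, and 22.4 to 41.3, 17.9 to 29.96 and 21.3 to 33.5 with a library left out. It was 25.1 and 23.1 for imbalance in Abl.3 and Abl.4 with the minimum share distance. With the minimum log2 difference, Abl.2 was the higher line for 34.5% of the genes called against Abl.4, beside 44.9% without it.

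The values whose sign turned were uncalled, both as reported and where they turned. With summed allelic counts, Tcf3 between Abl.3 and Abl.4 gave 0.16 and Ccr2 between Abl.2 and Abl.4 gave -0.20. The other turns came from leaving out a library. For abundance the values then ranged from -0.19 to 0.019 for Tcf3 and -0.15 to 0.17 for Spi1 between Abl.3 and Abl.4, from -0.088 to 0.18 for Ccr2 and -0.015 to 0.14 for Notch1 between Abl.2 and Abl.4, and for Notch1 from -0.011 to 0.75 between Abl.2 and Abl.3 and -0.69 to 0.073 between Abl.3 and Abl.4. For log2 allele ratios they ranged from -0.0603 to 0.051 for Spi1 in Abl.2, from -0.19 to 0.089 for Pax5 in Abl.4, and between Abl.3 and Abl.4 from -0.041 to 0.069 for Tcf3 and -0.0160 to 0.0088 for Irf8. For single alleles, the maternal level between Abl.2 and Abl.3 ranged from -0.059 to 0.20 for Tcf3, -0.044 to 0.084 for Irf4 and -0.11 to 0.0012 for Ikzf3, and the paternal level of Ebf1 between Abl.3 and Abl.4 from -0.12 to 0.037. The cause was not tested.

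The 2 preparations of a single clone limit every comparison, and Pax5 rests on the fewest allelic counts.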
